A study of Homo sapiens with 12 samples.

Results

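The keratins are described here from expression arrays of HK-2 cells. HK-2 is an immortalised human line, labelled as proximal tubular epithelium of the kidney. Of 10 keratin genes chosen for description (KRT6A, KRT7, KRT8, KRT10, KRT17, KRT18, KRT19, KRT20, KRT80 and KRT81), 7 had a probe set paired with that symbol alone, 13 probe sets in all. KRT6A, KRT17 and KRT81 had no such probe set in the annotation used and were not analysed here. All 7 genes passed the filter on low values (a log2 value above 4 on at least 3 arrays), each through 1 probe set at least, and 9 of the 13 probe sets passed it, among 10699 genes tested of 19775 named. The keratins were chosen by values measured on these same arrays: KRT20 for the largest difference in response between the times, and KRT18 for a lower level at 72 h in Ota cells. Values of those contrasts are therefore given without a test.

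The 4 groups were cells given a low dose of Ota for 24 h, vehicle control cells at 24 h, cells given the same low dose of Ota for 72 h, and vehicle control cells at 72 h, with 3 arrays each. All groups were this 1 line, treated when nearly confluent in medium supplemented with a growth factor, a steroid and insulin. Neither the concentration nor the full name of Ota is given in the labels. The wider study looked for expression signatures of kidney toxicity. Replicates are labelled as biological without saying what their cultures shared, so the p-values cover no more than the spread between these arrays. Levels are the deposited log2 values made with GCRMA, which models background from probe sequence and normalizes arrays by quantiles. Tests are limma's, and a gene is said to have risen or fallen where its p, adjusted over all genes tested, was below 0.05.

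Keratins are the intermediate filament proteins of epithelial cells. An acidic type I keratin pairs with a basic type II keratin, and the pairs assemble into filaments that anchor at desmosomes and hemidesmosomes and resist mechanical stress. KRT8 and KRT18 are the pair of simple, one-layered epithelia such as renal tubules, with KRT7 and KRT19 added in ducts and in many injured or cultured epithelia. KRT20 is a type I keratin best known from intestinal epithelium and from the surface cells of the urothelium. KRT10 is the type I keratin of differentiating epidermis, and KRT80 is a type II keratin found in many epithelia.

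The label of proximal tubular cells had support from few markers: 2 of 14 proximal tubule markers passed the filter, SLC3A1 and PAX8, and LRP2, CUBN, AQP1 and SLC34A1 did not. Markers of other cell types were mostly under it: 0 of 9 urothelial, 0 of 9 keratinocyte and 0 of 8 leukocyte markers passed, against 2 of 11 distal nephron, 1 of 10 endothelial and 3 of 10 fibroblast markers (COL1A1, DCN and LUM). Arrays of 1 group correlated at 0.986 to 0.994. The actin 3′ minus 5′ log2 difference, a sign of RNA quality, ranged from 0.89 to 1.33 over the 12 arrays, and its range in Ota cells overlapped that in control cells at both times.

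Under Ota the keratins did not move as 1 group. At 24 h KRT10, KRT18 and KRT19 were lower in Ota cells than in control cells. At 72 h KRT20 stood about 6-fold above its controls, with KRT18, KRT10 and KRT7 below theirs. KRT8, the type II partner of KRT18, had means that differed by less than the range of its own arrays at both times.

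**Figure D1:**
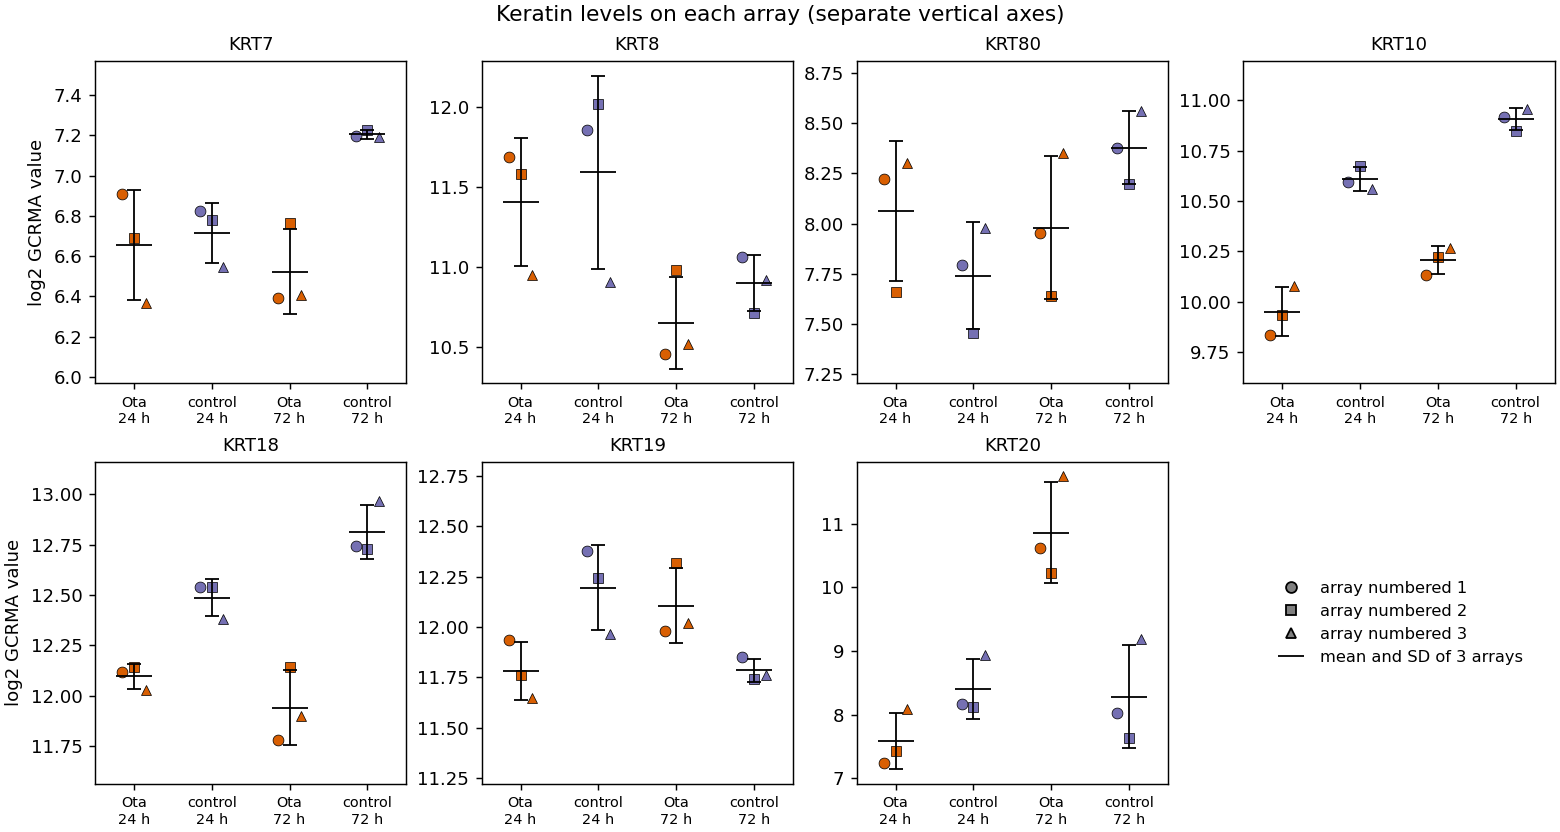
Log2 GCRMA level (vertical axis, separate for each gene) of the 7 keratins on each array, by group, with Ota cells left of control cells at each time. Symbols give the replicate number, bars the mean and SD of 3 arrays. The 3 Ota arrays of KRT20 at 72 h, at 10.22 to 11.74, lie above all its other arrays, and the KRT10 groups do not overlap.

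The type I keratins are given first. KRT20 had log2 levels of 7.25, 7.43 and 8.09 on arrays 1, 2 and 3 of Ota cells at 24 h, against 8.16, 8.11 and 8.94 in control cells. At 72 h the levels were 10.62, 10.22 and 11.74 in Ota cells, against 8.03, 7.63 and 9.19 in control cells. Array 3 was the highest of its group in all 4 groups. Ota arrays lay above control arrays at 72 h and below them at 24 h. The narrowest margin at 24 h was 8.09 (Ota array 3) against 8.11 (control array 2). Ordered by mean, Ota cells at 24 h (7.59 ± 0.44, SD, n = 3) were lowest, followed by control cells at 72 h (8.29 ± 0.81) and at 24 h (8.41 ± 0.47), and each overlapped the next. Ota cells at 72 h (10.86 ± 0.79) overlapped no other group. The log2 fold change, Ota over control, was −0.82 ± 0.45 (SE) at 24 h and 2.57 ± 0.45 at 72 h, the second being 5.96-fold with a 95% interval of 3.00 to 11.8. This fit did not use the replicate number. At 72 h arrays 1, 2 and 3 deviated from their group mean by −0.24, −0.64 and 0.88 in Ota cells. In control cells they deviated by −0.25, −0.65 and 0.90. The SE and the interval include this spread, though same-numbered arrays shared it. The difference of the responses, 3.39 ± 0.64, ranked 1 of 10699 genes, which is why KRT20 was chosen.

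KRT20 lies on chromosome 17, between KRT12 and KRT23 in the GRCh38.p14 gene order. Its promoter window is shown because KRT20 had the widest range of levels of the 7 keratins, and that of KRT10 beside it because KRT10 was lower in Ota cells at both times. RefSeq windows from 250 bases before to 50 after the start were matched for 3 of the 10 genes, KRT8 being the other; both printed windows are on the minus strand, KRT20 at chr17:40885193-40885492 and KRT10 at chr17:40822565-40822864, and read 5′ to 3′ along the gene. Capitals mark the TATA box letters TATAAA, the like run of letters ATAAAA and the CCAAT box, each searched on both strands, so that a match on the opposite strand appears as its reverse complement.
KRT20: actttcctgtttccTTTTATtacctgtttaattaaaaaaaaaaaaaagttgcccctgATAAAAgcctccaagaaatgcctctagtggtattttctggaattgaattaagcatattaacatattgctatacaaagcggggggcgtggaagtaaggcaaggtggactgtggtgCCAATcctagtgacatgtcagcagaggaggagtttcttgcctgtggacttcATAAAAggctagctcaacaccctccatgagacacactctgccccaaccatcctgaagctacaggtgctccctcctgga
KRT10: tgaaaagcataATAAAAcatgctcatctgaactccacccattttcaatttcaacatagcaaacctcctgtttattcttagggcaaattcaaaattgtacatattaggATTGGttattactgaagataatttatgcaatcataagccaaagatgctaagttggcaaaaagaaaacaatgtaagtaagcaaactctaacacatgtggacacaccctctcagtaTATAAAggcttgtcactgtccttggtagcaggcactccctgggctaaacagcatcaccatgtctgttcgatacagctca
KRT10 held TATAAA at position −29 from its start and ATAAAA at −239, both on the gene's strand. It held CCAAT at −143 on the opposite strand. KRT20 held no TATAAA and held ATAAAA at −28 and again at −193, with CCAAT at −79, on the gene's strand. On the opposite strand KRT20 held ATAAAA at −236. Among 35116 such windows, 11.53% held TATAAA, 15.99% ATAAAA and 34.61% CCAAT on either strand. On the gene's strand alone these shares were 7.33%, 9.44% and 19.61%. CDX2, a transcription factor of intestinal epithelium, where KRT20 is best known, was under the filter in every group, with means of 2.08 to 2.09.

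KRT18, the type I keratin of simple epithelia, read 12.12, 12.14 and 12.03 in Ota cells at 24 h, against 12.54, 12.54 and 12.38 in control cells. At 72 h it read 11.78, 12.14 and 11.90 in Ota cells, against 12.74, 12.73 and 12.97 in control cells. Every Ota array was below every control array at both times. In order of increasing mean came Ota cells at 72 h (11.94 ± 0.19), Ota cells at 24 h (12.10 ± 0.06), control cells at 24 h (12.49 ± 0.09) and control cells at 72 h (12.81 ± 0.14), and of these neighbours the Ota groups alone overlapped. KRT18 was lower in Ota cells at 24 h by limma, with a log2 fold change of −0.39 ± 0.11 (adjusted p = 0.0183). In a bulk sample, fewer cells with a transcript and less of it per cell cannot be told apart. At 72 h the value was −0.87 ± 0.11, a fold of 0.546 with a 95% interval of 0.463 to 0.645, given without a test because KRT18 was chosen for it. It was the 378th most negative of 10699 values, so it was not among the most extreme on the array.

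KRT19, a type I keratin of ducts that lacks most of the tail, read 11.93, 11.76 and 11.65 in Ota cells at 24 h, against 12.38, 12.24 and 11.97 in control cells. At 72 h the order was turned, with 11.98, 12.32 and 12.02 in Ota cells, against 11.85, 11.74 and 11.76 in control cells. The groups overlapped at neither time. By mean, Ota cells at 24 h (11.78 ± 0.14) and control cells at 72 h (11.79 ± 0.06) overlapped at the low end, and Ota cells at 72 h (12.11 ± 0.19) and control cells at 24 h (12.20 ± 0.21) at the high end. KRT19 fell at 24 h, with a log2 fold change of −0.41 ± 0.13 (adjusted p = 0.0293). At 72 h the log2 fold change was 0.32 ± 0.13, and the difference of the responses 0.74 ± 0.18. A further KRT19 probe set, 228491_at, stayed under the filter on all arrays.

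KRT10, the type I keratin of differentiating epidermis, was measured by 3 probe sets above the filter. The one with the highest mean, 210633_x_at, read 9.83, 9.93 and 10.08 in Ota cells at 24 h, against 10.60, 10.68 and 10.56 in control cells. Its 72 h levels were 10.13, 10.22 and 10.27 in Ota cells, against 10.92, 10.85 and 10.96 in control cells. No groups overlapped: the means increased through Ota cells at 24 h (9.95 ± 0.12), Ota cells at 72 h (10.21 ± 0.07), control cells at 24 h (10.61 ± 0.06) and control cells at 72 h (10.91 ± 0.05). KRT10 fell at 24 h, with a log2 fold change of −0.66 ± 0.09, or 0.632-fold (adjusted p = 0.000191). The 72 h value was −0.70 ± 0.09 and the difference of the responses −0.04 ± 0.12, with a 95% interval of −0.31 to 0.23.

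The other KRT10 probe sets had like values. Tested probe set by probe set, 207023_x_at was lower in Ota cells at 24 h (log2 fold change −0.87 ± 0.11, adjusted p = 0.000131), as was 213287_s_at (−0.82 ± 0.11, adjusted p = 0.000168). At 72 h their log2 fold changes were −0.88 and −0.69. The suffixes x_at and s_at mark sets whose probes can match other transcripts, which applies to all 3. KRT10-AS1, named as the antisense gene of KRT10, had its own probe set. It read 8.19, 7.92 and 8.20 in Ota cells at 24 h, against 8.62, 8.68 and 8.72 in control cells. Its 72 h levels were 9.04, 8.64 and 8.68 in Ota cells, against 9.32, 9.21 and 9.16 in control cells. Ota arrays lay below control arrays at both times, and the log2 fold changes were −0.57 ± 0.12 at 24 h and −0.45 ± 0.12 at 72 h, given without a test because KRT10-AS1 was chosen after its values were seen.

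**Figure D2:**
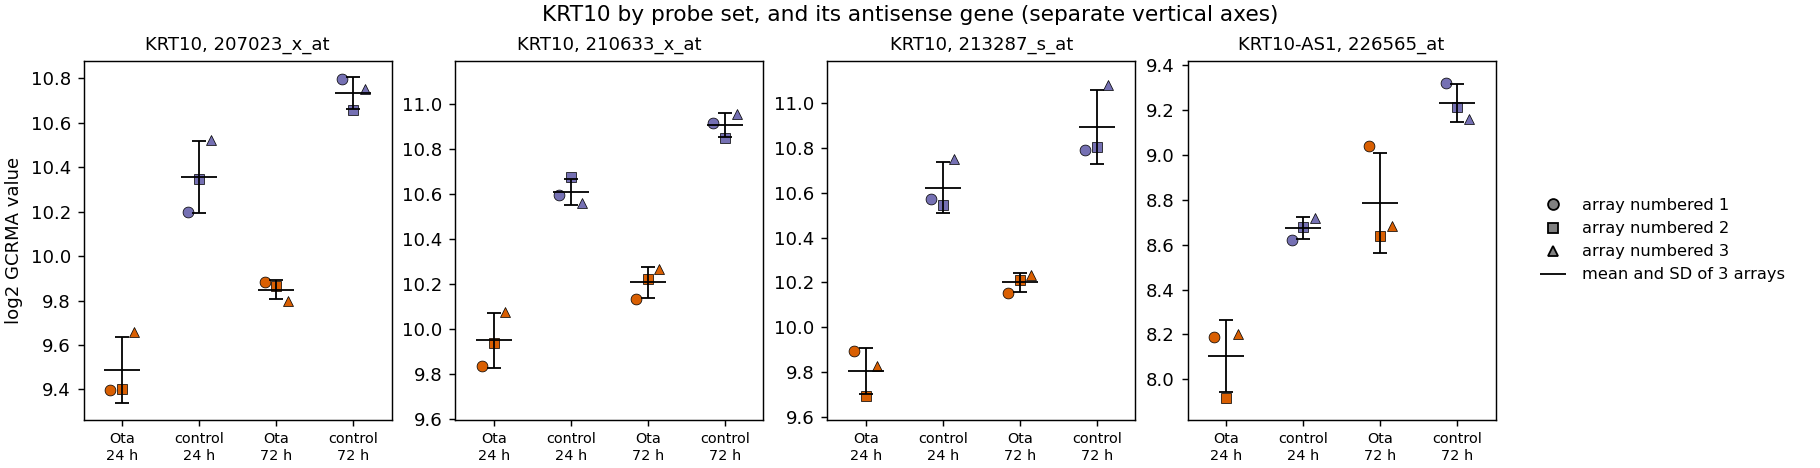
Log2 GCRMA level (vertical axis, separate for each panel) of the 3 KRT10 probe sets and of KRT10-AS1 on each array, by group, with the mean and SD of 3 arrays. In every panel the 3 Ota arrays lie below the 3 control arrays at the same time.

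Among the type II keratins, KRT8 is the partner of KRT18 and its neighbour on chromosome 12. KRT8 read 11.69, 11.58 and 10.95 in Ota cells at 24 h, against 11.85, 12.02 and 10.90 in control cells. The 72 h levels of KRT8 were 10.45, 10.98 and 10.52 in Ota cells, against 11.06, 10.71 and 10.92 in control cells. Array 3 was low in both 24 h groups, and Ota and control arrays overlapped at both times. Neighbours overlapped along the whole order of means, from Ota cells at 72 h (10.65 ± 0.29) through control cells at 72 h (10.90 ± 0.18) and Ota cells at 24 h (11.40 ± 0.40) to control cells at 24 h (11.59 ± 0.60). The log2 fold change at 24 h was −0.19 ± 0.28, with a 95% interval of −0.81 to 0.43 (adjusted p = 0.664), so a change as large as that of KRT18 lies inside it. At 72 h it was −0.25 ± 0.28.

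KRT7, the type II keratin often found with KRT19 in ducts, read 6.91, 6.69 and 6.37 in Ota cells at 24 h, against 6.82, 6.78 and 6.55 in control cells. The 72 h levels of KRT7 were 6.39, 6.77 and 6.41 in Ota cells, against 7.20, 7.23 and 7.19 in control cells. The control arrays at 72 h lay close together and above all 9 others, which overlapped. The means were 6.52 ± 0.21 in Ota cells at 72 h, 6.66 ± 0.27 in Ota cells at 24 h, 6.72 ± 0.15 in control cells at 24 h and 7.20 ± 0.02 in control cells at 72 h. The log2 fold change was −0.06 ± 0.14 at 24 h (adjusted p = 0.791) and −0.68 ± 0.14 at 72 h. These values come from 209016_s_at, and the 3 other KRT7 probe sets stayed between 1.67 and 2.87 on all arrays.

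KRT80, the neighbour of KRT7 on chromosome 12, read 8.22, 7.66 and 8.30 in Ota cells at 24 h, against 7.80, 7.45 and 7.98 in control cells. The 72 h levels of KRT80 were 7.95, 7.64 and 8.35 in Ota cells, against 8.38, 8.20 and 8.56 in control cells. Array 2 was the lowest of its group in all 4 groups, and Ota and control arrays overlapped at both times. The means were 7.74 ± 0.27 in control cells at 24 h, 7.98 ± 0.36 in Ota cells at 72 h, 8.06 ± 0.35 in Ota cells at 24 h and 8.38 ± 0.18 in control cells at 72 h, each overlapping the next. The log2 fold change was 0.32 ± 0.21 at 24 h (adjusted p = 0.291, or 0.0268 with the replicate number as a block) and −0.40 ± 0.21 at 72 h.

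Ota against control at 24 h was tested for the 6 keratins other than KRT20. Of these, 0 rose, where 9.44% of all genes tested did, and 3 fell (KRT10, KRT18 and KRT19), where 21.6% of all genes did. KRT7, KRT8 and KRT80 did not pass. With the replicate number as a block, KRT80 passed as higher (0.32, adjusted p = 0.0268), so that 1 rose and 3 fell. The median log2 fold change of the 6 was −0.29, against −0.06 over all genes. With a shift of the arrays to 1 common median, the median of all genes at 24 h was 0.07 instead of −0.06, and KRT18 (−0.27, adjusted p = 0.106) and KRT19 (−0.29, adjusted p = 0.115) no longer passed. The count of 3 also became 1 without array 3 of Ota cells at 24 h, and without array 1 or array 2 of control cells at 24 h.

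Ota against control at 72 h and the difference of the responses took part in the choice of the keratins, so the next counts describe where the fitted values fell, are no test of the keratins, and nothing is read from them. At 72 h, 1 of 7 keratins was past the threshold on the higher side (KRT20), beside 17.1% of all genes, and 3 on the lower side (KRT7, KRT10 and KRT18), beside 14.9%. For the difference, 2 were past it on the higher side (KRT19 and KRT20), beside 15.5%, and 1 on the lower side (KRT18), beside 5.79%. Median log2 values of the 7 were −0.40 at 72 h and −0.06 for the difference, against 0.01 and 0.09 over all genes. The mean of the fibroblast markers differed between these groups too, with array means of 4.74 to 4.84 in Ota cells at 72 h, against 4.44 to 4.56 in control cells. COL1A2, COL3A1, PDGFRA and PDGFRB were under the filter, and the part of these markers in the results was not tested.

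**Figure D3:**
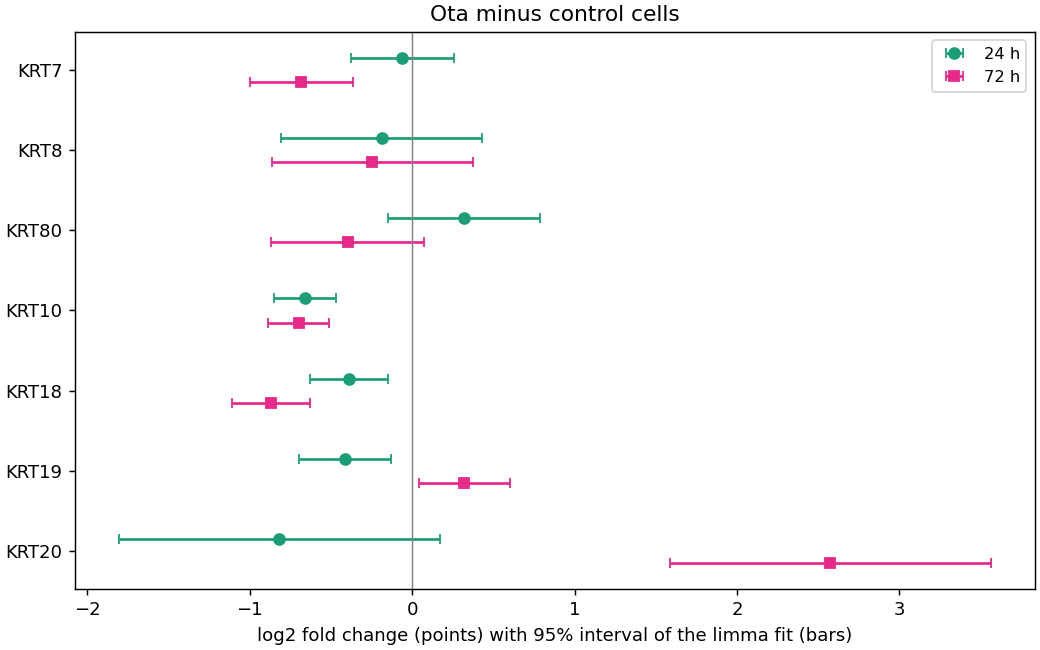
Log2 fold change, Ota over control (horizontal axis), of the 7 keratins at 24 h (circles) and 72 h (squares), with the 95% interval of the limma fit. KRT20 lies at −0.82 at 24 h and 2.57 at 72 h, KRT19 also changes side, and KRT10 has nearly the same value at both times.

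The comparison of 72 h with 24 h asks how the keratins changed in culture, in Ota cells and in control cells. KRT18 and KRT20 were left untested here because the contrasts that chose them share these arrays. In Ota cells, 1 of 5 keratins tested rose, KRT10, by 0.26 ± 0.09 on the log2 scale (adjusted p = 0.0402), and 0 fell, where 22.2% of all genes rose and 9.99% fell. The median log2 fold change of the 5 was −0.08, against 0.08 over all genes. KRT19 had 0.33 ± 0.13 and arrays that did not overlap, but did not pass (adjusted p = 0.0737). KRT8 had −0.75 ± 0.28 (adjusted p = 0.0618), KRT7 −0.13 ± 0.14 (adjusted p = 0.514) and KRT80 −0.08 ± 0.21 (adjusted p = 0.803). The call of KRT10 was lost when quantile normalization was repeated (adjusted p = 0.0755), after the shift to a common median (adjusted p = 0.349) and when any 1 of 8 of the 12 arrays was left out. These values are of 210633_x_at, which had an adjusted p of 0.0535 when tested probe set by probe set. In that fit the other KRT10 sets rose, 207023_x_at by 0.36 (adjusted p = 0.0295) and 213287_s_at by 0.40 (adjusted p = 0.0184).

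In control cells 4 of the same 5 keratins changed with time, and these comparisons share arrays with those of Ota against control. Of the 5, 3 were higher at 72 h than at 24 h, where 22.7% of all genes were, and 1 was lower, where 23.6% were. KRT80 rose by 0.64 ± 0.21 (adjusted p = 0.0295), KRT7 by 0.49 ± 0.14 (adjusted p = 0.0164) and KRT10 by 0.30 ± 0.09 (adjusted p = 0.0147). Tested probe set by probe set, the KRT10 set 207023_x_at rose by 0.38 (adjusted p = 0.0168). The set 213287_s_at had 0.27 and did not pass (adjusted p = 0.0646). KRT19 fell by 0.41 ± 0.13 (adjusted p = 0.0209). KRT8 had −0.69 ± 0.28 and did not pass (adjusted p = 0.0635). The median of the 5 was 0.30, against −0.00 over all genes. This count fell to 2 without array 1 or array 2 of control cells at 24 h, and to 1 without array 3 of control cells at 72 h. Without a test, KRT18 had 0.33 ± 0.11 in control cells beside −0.16 ± 0.11 in Ota cells, and KRT20 had −0.12 ± 0.45 beside 3.27 ± 0.45. So the times did not overlap for KRT20 in Ota cells and overlapped in control cells, whereas for KRT7 they overlapped in Ota cells and not in control cells. The mean of the fibroblast markers was lower at 72 h as well, with 4.74 to 4.84 against 4.92 to 4.98 at 24 h in Ota cells, and 4.44 to 4.56 against 4.94 to 4.98 in control cells, and its part in these changes was not tested.

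**Figure D4:**
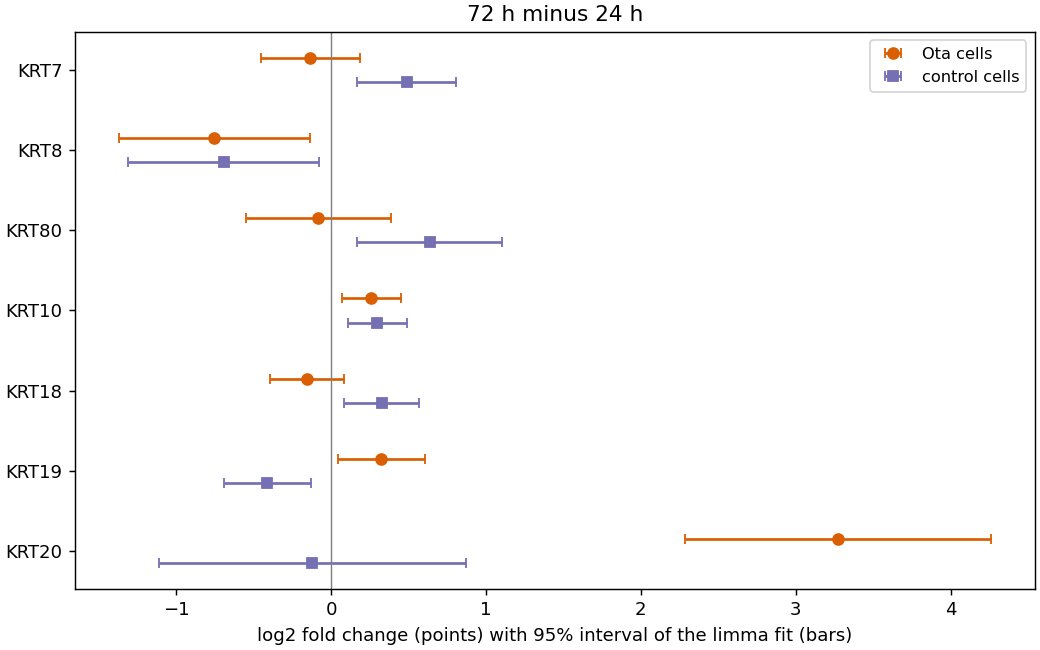
Log2 fold change, 72 h over 24 h (horizontal axis), of the 7 keratins in Ota cells (circles) and control cells (squares), with the 95% interval of the limma fit. KRT20 lies at 3.27 in Ota cells and −0.12 in control cells, and KRT10 has nearly the same value in both.

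Of the keratins outside the 10, 37 were on the array with 43 probe sets, and 0 passed the filter. Their highest value on any array was 4.28, for KRT222, and 42 of the 43 probe sets stayed under 4 on every array. KRT1, the usual type II partner of KRT10 in epidermis, and KRT5 were among those under the filter. KRT12, which neighbours both KRT10 and KRT20 on chromosome 17, was under it too.

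Other intermediate filament genes form the other filament systems and the nuclear lamina. Of 11 tested, 2 rose and 2 fell at 24 h under Ota, where 9.44% of all genes rose and 21.6% fell. At 72 h 4 rose and 1 fell, where 17.1% of all genes rose and 14.9% fell. Their median log2 fold change was −0.31 at 24 h and 0.26 at 72 h, against −0.06 and 0.01 over all genes. NEFL, the light neurofilament subunit, rose at both times, by 1.31 ± 0.16 (adjusted p = 0.000115) and 1.18 ± 0.16 (adjusted p = 0.00027). Its other probe sets had 0.69 and 0.05 at 24 h, and 0.52 and 1.08 at 72 h, so the size at 24 h rests on 1 probe set. NES, the intermediate filament protein nestin, averaged 7.90 in Ota cells and 8.62 in control cells at 24 h, and fell with a log2 fold change of −0.72 ± 0.11 (adjusted p = 0.000699). At 72 h it averaged 8.12 in Ota cells and 7.20 in control cells, and rose by 0.92 ± 0.11 (adjusted p = 0.000171). VIM, the mesenchymal filament protein vimentin, which cultured epithelial cells commonly make beside keratins, had −0.31 ± 0.11 at 24 h (adjusted p = 0.061, or 0.0102 with the replicate number as a block) and fell at 72 h (−0.35 ± 0.11, adjusted p = 0.0371). In control cells from 24 h to 72 h, 0 rose and 8 fell, where 22.7% of all genes rose and 23.6% fell, among them the lamin gene LMNB1 (−2.62 ± 0.22, adjusted p = 4.41e-06) and NES (−1.42 ± 0.11, adjusted p = 3.38e-06).

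Genes of the structures that hold keratin filaments, the plakins, desmosomes and hemidesmosomes, were the next list. Of 15 tested, 0 rose and 3 fell at 24 h under Ota (all genes 9.44% and 21.6%), and 1 rose and 1 fell at 72 h (all genes 17.1% and 14.9%). In control cells 2 rose and 3 fell with time (all genes 22.7% and 23.6%). Median log2 fold changes were 0.00, 0.02 and −0.04 in these comparisons, against −0.06, 0.01 and −0.00 over all genes. PPL, which encodes the desmosome-linked plakin periplakin, fell at both times, with −0.83 ± 0.19 at 24 h (adjusted p = 0.00573) and −1.05 ± 0.19 at 72 h (adjusted p = 0.00153). ITGB4, the integrin chain of hemidesmosomes, fell at 24 h (−0.80 ± 0.18, adjusted p = 0.00605). Tested probe set by probe set, its other probe set had −0.62 at 24 h and did not pass (adjusted p = 0.0539). At 72 h that set had 0.71 (adjusted p = 0.0323), where the one compared had 0.11. MACF1, a plakin that links microtubules and actin, rose at 72 h by 0.70 ± 0.10 (adjusted p = 0.000555), with 1 of its 6 probe sets at −0.17. In control cells over time the junction protein genes PERP and PKP4 went opposite ways: PERP fell (−0.61 ± 0.10, adjusted p = 0.000499) and PKP4 rose (0.54 ± 0.10, adjusted p = 0.0013). The other PERP probe sets had −0.53 and −0.04 there, and the second of these had 5.23 at 24 h and 5.35 at 72 h under Ota, where the one compared had −0.41 and 0.12. The other PKP4 probe sets had 0.32 to 1.24 in control cells over time.

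Genes of proteins that bind, phosphorylate or fold keratins came next. Of 16 tested, 1 rose and 4 fell at 24 h (all genes 9.44% and 21.6%), and 5 rose and 0 fell at 72 h (all genes 17.1% and 14.9%). In control cells 1 rose and 8 fell with time (all genes 22.7% and 23.6%). The medians were 0.08, 0.14 and −0.31, against −0.06, 0.01 and −0.00 over all genes. DNAJB6, a chaperone that binds KRT18, rose at both times, by 1.38 ± 0.14 (adjusted p = 4.21e-05) and 0.79 ± 0.14 (adjusted p = 0.00179). FAM83H, which brings casein kinase to keratin filaments, fell at 24 h (−1.08 ± 0.14, adjusted p = 0.00016). SFN, the epithelial 14-3-3 protein, a family that binds phosphorylated KRT18, averaged 10.41 in Ota cells and 11.48 in control cells at 24 h. At 72 h it averaged 10.52 in Ota cells and 9.65 in control cells, and rose by 0.87 ± 0.14 (adjusted p = 0.00092). Over time SFN fell in control cells (−1.83 ± 0.14, adjusted p = 2.53e-06), as did another 14-3-3 gene, YWHAH (−1.34 ± 0.17, adjusted p = 7.69e-05).

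Few transcription factors and splicing regulators of epithelial identity were above the filter. Of 8 tested, 0 rose and 1 fell at 24 h (all genes 9.44% and 21.6%), and 0 rose and 1 fell at 72 h (all genes 17.1% and 14.9%). In control cells 2 rose and 0 fell with time (all genes 22.7% and 23.6%). The medians were 0.04, −0.09 and 0.27, against −0.06, 0.01 and −0.00 over all genes. TWIST1, a factor of mesenchymal transition, fell at 24 h (−0.31 ± 0.09, adjusted p = 0.0251), a call lost after the shift to a common median (adjusted p = 0.125). ESRP1, an epithelial splicing regulator, averaged 6.59 in Ota cells and 7.93 in control cells at 72 h, and fell with a log2 fold change of −1.35 ± 0.20 (adjusted p = 0.000582). In control cells it was higher at 72 h than at 24 h by 2.10 ± 0.20 (adjusted p = 1.13e-05). KLF5, an epithelial zinc finger factor, rose in control cells by 0.82 ± 0.25 (adjusted p = 0.017), though its other probe set had 0.14. HAVCR1, the kidney injury molecule of proximal tubules, had 0.11 ± 0.19 at 24 h (adjusted p = 0.716) and rose at 72 h by 1.68 ± 0.19 (adjusted p = 9.51e-05), so it and KRT20 were both high in Ota cells at 72 h.

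Across the 12 arrays, the 3 genes whose levels were most like those of KRT20 were TMEM171, ZC3H12C and HES6, with Pearson r of 0.97, 0.97 and 0.95. These values describe 12 arrays that share the same 4 groups, and array 3 was high for KRT20 in each. At 72 h the log2 fold change was 1.17 ± 0.21 for TMEM171, a membrane protein gene, and 0.67 ± 0.15 for ZC3H12C, a zinc finger gene. HES6, a transcription factor of the hairy and enhancer of split family, had 0.56 ± 0.19. For KRT18 the most like genes were HDLBP (r = 0.97), which encodes an RNA-binding protein, FKBP2 (r = 0.97), an endoplasmic reticulum prolyl isomerase, and RNH1 (r = 0.96), the ribonuclease inhibitor. Their log2 fold changes at 72 h were −1.09 ± 0.10, −1.23 ± 0.10 and −0.43 ± 0.09. The HDLBP probe sets did not share 1 direction: a pair of them had 3.26 and 2.89 at 24 h, where the one compared had −0.56. At 72 h that pair had 1.25 and 1.09, where the one compared had −1.09 and the remaining set −1.18. The genes were picked for likeness over these arrays, so no test is given.

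**Figure D5:**
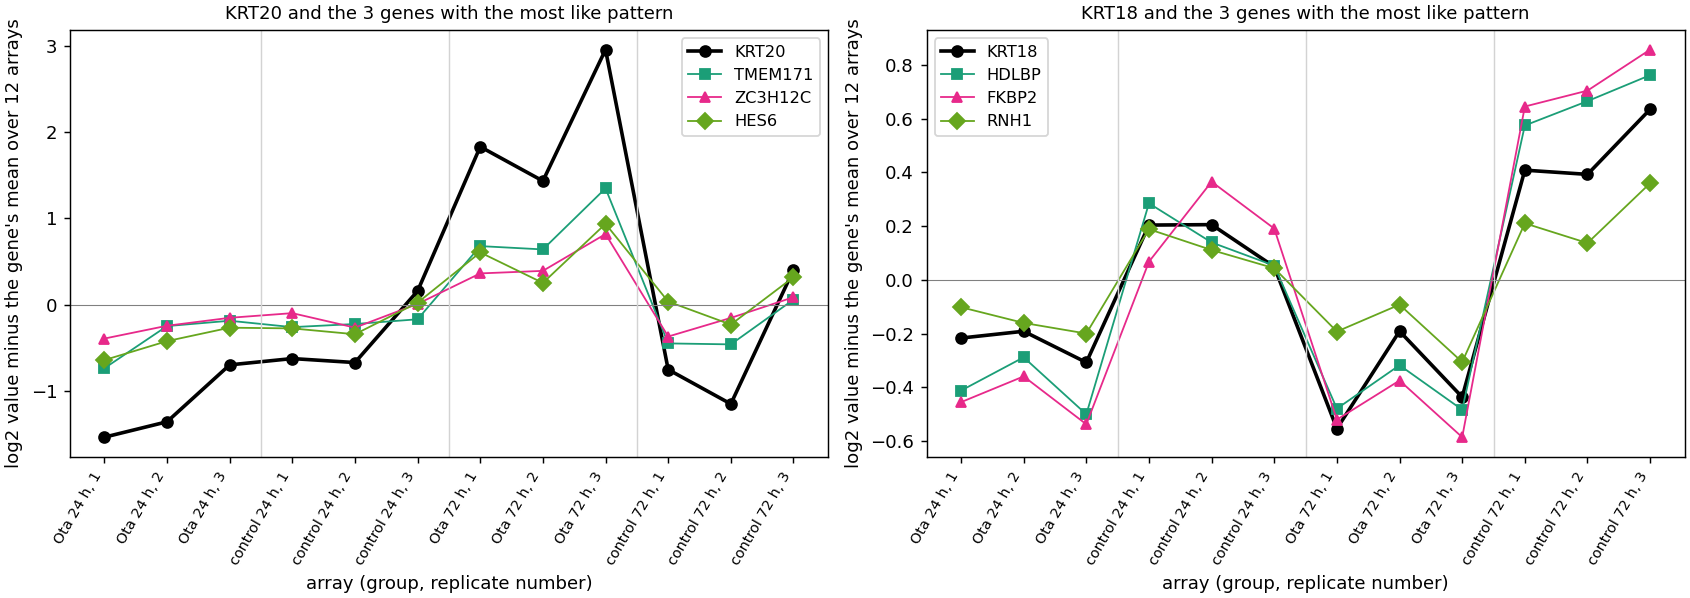
Log2 level minus the gene's mean over the 12 arrays (vertical axis) on each array (horizontal axis), for KRT20 with its 3 most like genes (left) and KRT18 with its 3 (right); lines join the points of a gene and give no order to replicates. KRT20, TMEM171 and ZC3H12C are highest on the Ota arrays at 72 h, HES6 overlaps there with control cells, and KRT18 and its 3 genes lie below their means on all 6 Ota arrays.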

How the data were processed

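The deposited data were log2 values for 54675 probe sets on 12 Affymetrix arrays. The authors made these log2 values with GCRMA, per the submitters' processing notes, which name neither version nor settings. GCRMA leaves low values on a floor, so changes near it are understated, and quantile normalization hides a change of all RNA. Precision is limited by the number of arrays, since an array has no read depth.

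From the deposited values, 62 control probe sets were left out. The platform annotation gave 1 symbol for 41091 probe sets (41037 updated through RefSeq gene names of GRCh38.p14), several for 1801 and none for 11721. Each gene was read from its probe set with the highest mean and tested if that was above log2 4 on at least 3 arrays. The fit gave each group a mean, over all 12 arrays, with limma 3.58.1 (R 4.3.3; lmFit, eBayes, 8 residual and 3.31 prior degrees of freedom). Benjamini-Hochberg adjustment ran over 10699 genes, with calls at an adjusted p below 0.05. Errors of log2 fold changes are SE, of levels SD. The fit was tested on simulated data. The files were loaded through data.table (version 1.17.8). Promoters and figures used Python 3.11.15, pandas 2.3.3 and matplotlib 3.10.9.

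The members and the gene lists were chosen with earlier results of these data known. The text names all 10 keratins, other keratins above the filter, up to 2 called genes by smallest p per list in each of 3 comparisons (Ota against control at 24 h and 72 h, control cells over time), the 3 genes most like KRT20 and KRT18, and CDX2, VIM and HAVCR1. KRT10-AS1 was added after its values were seen. Alternatives were the replicate number as a block, other normalizations and filters, other choices of probe set, another spread model, and leaving out each array. Same-numbered arrays of Ota and control cells at 24 h correlated in their deviations from the group means at 0.44, 0.32 and 0.45, all above 0.1, so by that rule the numbers pair the 24 h samples. In the other comparisons at least 1 pair was below 0.1.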

Additional observations from a re-analysis of the deposited data

Results flagged for a closer look

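For KRT20 and KRT19 every Ota array lay below every control array at 24 h and above every control array at 72 h. For KRT20 the narrowest margin at 24 h was 8.09, on Ota array 3, against 8.11, on control array 2. Same-numbered arrays lay further apart, with 7.25 in Ota cells against 8.16 in control cells, 7.43 against 8.11 and 8.09 against 8.94. How many of all genes had such a reversal was not counted. KRT20 had a log2 fold change of −0.82 at 24 h and 2.57 at 72 h, and KRT19 −0.41 at 24 h and 0.32 at 72 h. The difference was not tested as a finding for either, because this contrast took part in the choice of the keratins. In the reported fit the KRT20 value at 24 h and the KRT19 value at 72 h were not past an adjusted p of 0.05. Each was past it in 1 of 21 settings.

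Among the named genes of the other lists, with HAVCR1 added, the difference of the Ota responses, 72 h minus 24 h, passed limma's test for 9. Apart from HAVCR1, these genes were picked by small p in comparisons that share the arrays of the difference. Passing was therefore in part set by that choice, and nothing is read from the count. Of all genes tested, 15.5% passed with a more positive response at 72 h and 5.79% with a more negative one. The intermediate filament genes NES (1.64 ± 0.16, adjusted p = 0.000132) and LMNB1 (1.51 ± 0.31, adjusted p = 0.00709) had more positive responses at 72 h. So did the keratin-binding genes SFN (1.94 ± 0.20, adjusted p = 0.000164), YWHAH (1.37 ± 0.24, adjusted p = 0.00315) and FAM83H (1.21 ± 0.19, adjusted p = 0.002). The junction genes ITGB4 (0.91 ± 0.26, adjusted p = 0.0273) and PERP (0.53 ± 0.14, adjusted p = 0.0223) and the injury marker HAVCR1 (1.58 ± 0.27, adjusted p = 0.00271) did as well. ESRP1, the epithelial splicing regulator, had the more negative response at 72 h (−1.31 ± 0.29, adjusted p = 0.0095).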

How the results depend on the processing

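KRT10 at 24 h passed in all 21 settings, the reported one included (−0.78 to −0.54), KRT18 at 24 h in 17 and KRT19 at 24 h in 14. KRT20 ranged from −1.07 to −0.55 at 24 h, 2.13 to 3.03 at 72 h and 2.95 to 3.84 for the difference. KRT19 at 24 h missed the threshold with no filter (adjusted p = 0.0598) and with the mean of its probe sets (−0.20, adjusted p = 0.0629). The shift to a common median left 1 keratin called at 24 h instead of 3, and calls among all genes were then 1881 higher of 3578, instead of 1010 of 3317. For Ota cells at 72 h against 24 h, 1 keratin was called. The count was 0 with quantile normalization repeated and 3 with trend and robust estimation. It was also 0 in the fit over all probe sets, where each gene was still read from its probe set with the highest mean. In that fit the KRT10 sets 207023_x_at (0.36, adjusted p = 0.0295) and 213287_s_at (0.40, adjusted p = 0.0184) passed. The cause of these changes in the count was not tested. Leaving out 1 array at a time gave counts of 1 to 3 at 24 h, 4 to 5 at 72 h, 2 to 4 for the difference, 1 to 5 in control cells over time and 0 to 3 in Ota cells over time.

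Over all groups, same-numbered arrays correlated in their deviations at 0.067 to 0.455, above 0.1 in 14 of 18 pairs, and 11 of 12 arrays were closest to one of their own number. The numbers met the rule of every pair above 0.1 between Ota and control cells at 24 h, and in the other comparisons of the report they did not. With the replicate number as a block, 4 keratins were called at 24 h (KRT80 added, as higher). Besides the keratins, VIM and the list genes named for a call at 24 h were looked at there, and VIM alone changed. List genes named for other comparisons were not looked at there, among them MACF1 (adjusted p = 0.0518 at 24 h in the reported fit). The other counts were 5 at 72 h, 5 for the difference instead of 3, 5 in control cells over time and 3 instead of 1 in Ota cells over time.

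Changes of sign were all of values that had not passed, except HDLBP at 24 h, which had 0.81 with the mean of its probe sets. KRT7 at 24 h had 0.063 after the median shift. The other changes of sign in tested comparisons came from leaving out 1 array. At 24 h the range over those settings was −0.19 to 0.082 for KRT7, −0.53 to 0.040 for KRT8, −0.021 to 0.36 for HAVCR1 and −0.27 to 0.00061 for TMEM171. KRT80 ranged from −0.28 to 0.088 in Ota cells over time. In control cells over time TMEM171 ranged from −0.24 to 0.023 and ZC3H12C from −0.14 to 0.085. Untested values that changed sign were KRT20 in control cells over time (−0.57 to 0.20 over all settings) and the differences of KRT8 (−0.29 to 0.29) and KRT10 (−0.18 to 0.025).

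Limits: 3 arrays per group, 1 cell line and 1 dose. In control cells over time KRT80 passed in 16 of 21 settings (adjusted p = 0.0868 with no filter), KRT19 in 17, KRT10 in 20 and KRT7 in 19 of 20, and KRT10 in Ota cells over time in 10 of 21. Other calls that failed in some settings were VIM at 72 h (passed in 13 of 21) and in control cells over time (8 of 21), TWIST1 at 24 h (16), KLF5 (17) and the differences of ITGB4 (10 of 20) and PERP (17 of 21). KRT7, KRT8, KRT10 and KRT18 values come from probe sets whose probes can match other transcripts.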
